A study of Mus musculus with 2 samples.

Results

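The genes described here were 6 immediate early genes (Fos, Jun, Junb, Egr1, Ier2 and Atf3) and 4 heat shock genes (Hspa1a, Hspa1b, Dnajb1 and Hsph1), 10 of the 55414 genes counted. They were chosen by symbol and not by their values, and each symbol matched 1 gene. The question was whether nuclei that had gone through an enzyme reaction at 37 °C carried more mRNA of genes that stress switches on.

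Nuclei came from C2C12 cells, an established mouse myoblast line, and were sequenced one by one in droplets, where each captured molecule carried a unique molecular identifier (UMI). For the in situ polyadenylated library, yeast poly(A) polymerase (yPAP) added tails to free RNA ends during 25 min at 37 °C, so that RNAs with no tail of their own could be primed. For the standard library, nuclei went from the same isolation to counting without the reaction, so enzyme and warm incubation cannot be told apart. Per the study's methods, both sets of nuclei had been lysed from the cells on ice, fixed in methanol and stored below freezing before the reaction step. Whether nuclei fixed this way could still transcribe during the reaction was not tested. The ratios below thus compare mRNA levels and do not measure induction. The reaction mix held the RNase inhibitor SUPERase•In. For tissue sections, the study states that this inhibitor failed to keep longer transcripts from degrading in the reaction. RNA integrity of the nuclei was not assessed here, and its part in the levels was not tested. Each group had 1 library, so no test between the groups was possible, and nuclei are not replicates of a group. All intervals are 95% intervals that cover counting error only. Those of shares of nuclei count each nucleus as an independent draw from its library. No interval covers the spread between libraries, so intervals that lie apart do not test a difference between the groups.

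Immediate early genes are transcribed within minutes of a stimulus, from transcription machinery that is already present in the cell. The serum response factor and its ERK-dependent partners drive many of them, and Fos and Jun family proteins then pair as the AP-1 transcription factor. Heat shock genes are switched on by the transcription factor HSF1 when unfolded proteins draw chaperones away from it, and their products refold proteins. Both groups are widely used as signs of handling stress, since dissociation of muscle and other tissues at warm temperature can induce them.

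A nucleus was a barcode with over 750 UMIs in the transcript-based (kallisto) matrix. This gave 1335 in situ polyadenylated and 1123 standard nuclei with medians of 1088 and 996 UMIs, and no nucleus barcode occurred in both libraries. The nuclei held 1974403 and 1382984 UMIs by kallisto, and 11545281 and 6237950 UMIs in the genome-based STAR matrix. The myoblast markers Des (360 and 636 kallisto UMIs), Vim (922 and 1314) and Cdh15 (42 and 96) were present in the in situ polyadenylated and standard nuclei. So were Itga7 (175 and 228) and Ncam1 (136 and 235). Myod1 (15 and 13), Myf5 (6 and 9), Pax7 (5 and 4) and Chrna1 (8 and 18) had few UMIs. Of the differentiated muscle markers, Ttn had 2035 and 2328 UMIs, Myh3 99 and 77, Myog 3 and 2, Actc1 2 and 4, and Ckm 1 and 1. Of the fibroblast-like markers, Col1a1 had 674 and 655, Pdgfra 4 and 15, and Dcn 3 and 1. Of the 6 endothelial, immune and neural markers, Cdh5, Rbfox3 and Snap25 had 0 kallisto UMIs in both, while Ptprc had 0 and 4, Cd68 1 and 6, and Pecam1 10 and 35. By STAR all 6 had UMIs, with Rbfox3 the highest in the in situ polyadenylated nuclei (105 and 43). Protein-coding UMIs were 29.1% of the total after in situ polyadenylation and 55.5% in the standard nuclei, which lowers the share of mRNAs as a group. Levels are given as CPM (UMI counts of the nuclei brought to the same total in each library). Ratios are log2 ratios of CPM, in situ polyadenylated over standard, set to 0 at the median protein-coding gene, taken over those that reached 50 UMIs in both libraries. That gene lay at −1.19 by kallisto and −1.92 by STAR before the scaling.

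The members differ in structure, and its part in what each matrix counts was not tested. The sources used here do not say whether STAR counted introns. Jun and Ier2 are single-exon genes, as are Hspa1a and Hspa1b, while Hsph1 has 18 exons in its canonical transcript and introns make up 50.6% of its gene body. Atf3 is the member with the most intron, 94.9% of the gene body. Jun lies on chromosome 4 (94937271 to 94940459, minus strand of GRCm39), and the lncRNA Junos overlaps all of its 3189 bases on the opposite strand. Hsph1 lies on chromosome 5 (149537636 to 149560156, minus strand), with the lncRNA Gm73411 over 13147 of its bases on the opposite strand. kallisto counting was strand-aware. The sources used here do not give the strand setting of STAR, so reads of such pairs may be mixed in that matrix.

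Hspa1a and Hspa1b, 2 inducible HSP70 genes, lie on chromosome 17 at 35188166 to 35191132 and 35175412 to 35178214, both on the minus strand. Their coding sequences were identical at 1915 of 1926 aligned positions (99.4%), and 1673 of the 1893 windows of 31 bases in the Hspa1a coding sequence (88.4%) also occurred in Hspa1b. None of the 783 windows of the Hspa1a 3′ UTR did. Reads from the coding sequence can thus be assigned to either gene or neither, whereas reads from the 3′ ends separate the genes.

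The windows of 250 bases upstream of the Jun, Hspa1a and Hspa1b starts are shown because they hold the same incomplete heat shock motif, a GAA unit facing a TTC unit, in an immediate early gene and in the HSP70 pair. They come from the RefSeq promoters of GRCm38.p6, which held all members except Egr1 and Ier2, and were placed in GRCm39 by exact match, at chr4:94940460-94940709 for Jun, chr17:35191133-35191382 for Hspa1a and chr17:35178215-35178464 for Hspa1b, all on the minus strand. Each is written 5′ to 3′ on the strand of the gene, with the match to GAANNTTC in capitals.
Jun: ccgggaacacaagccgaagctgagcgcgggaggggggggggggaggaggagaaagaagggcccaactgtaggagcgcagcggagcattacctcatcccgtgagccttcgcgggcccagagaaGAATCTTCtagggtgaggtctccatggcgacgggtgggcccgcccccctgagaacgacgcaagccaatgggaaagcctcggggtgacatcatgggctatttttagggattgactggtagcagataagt
Hspa1a: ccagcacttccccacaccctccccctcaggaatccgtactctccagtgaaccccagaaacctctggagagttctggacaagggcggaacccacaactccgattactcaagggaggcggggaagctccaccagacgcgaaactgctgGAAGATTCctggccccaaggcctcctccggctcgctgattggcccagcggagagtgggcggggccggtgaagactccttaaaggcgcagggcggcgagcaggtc
Hspa1b: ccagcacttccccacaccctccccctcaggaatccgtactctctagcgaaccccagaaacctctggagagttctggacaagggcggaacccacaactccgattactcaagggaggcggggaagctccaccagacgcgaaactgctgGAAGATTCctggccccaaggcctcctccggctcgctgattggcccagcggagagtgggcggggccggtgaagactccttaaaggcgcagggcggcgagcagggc
The Hspa1a and Hspa1b windows were identical at 247 of 250 positions, with 201 in an unbroken run. GAANNTTC, which reads the same on both strands, lay 128 to 121 bases before the Jun start and 104 to 97 bases before the Hspa1a and Hspa1b starts. It occurred in 3 of the 8 members with a window and in 6.69% of 32851 promoter windows of the same length. The facing form TTCNNGAA occurred in Hsph1, 33 to 26 bases before 1 of its starts and 54 to 47 before the other, and in 7.17% of all windows. The full heat shock element of 3 alternating units, searched from either starting unit, was in 0 of the members' windows and in 0.466% of all windows for each form. The CArG box, the core of the serum response element, was in 0 of the 8 members with a window (1.47% of all windows). The same held for the cyclic AMP response element TGACGTCA (1.55%) and the AP-1 site TGACTCA (4.46%). Egr1, Ier2 and bases further upstream were not searched. TGACG, which is contained in TGACGTCA, occurred in Fos, Junb, Atf3 and Dnajb1 (17.8% of all windows), and TATAAA in Fos (12.4%). These matches describe the letters of these windows and not binding.

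By kallisto, no member with enough UMIs to be assessed was raised 2-fold in the in situ polyadenylated nuclei relative to the median protein-coding gene. Of the 10 members, 6 passed a minimum of 20 UMIs over both libraries together, and 0 of these 6 were at least 2-fold higher and 0 at least 2-fold lower, where 3.63% of all 8430 genes tested were higher and 12% lower. The other 4, Fos, Atf3, Hspa1a and Hspa1b, had too few UMIs for such a call. The median of the 6 was −0.27, beside −0.21 (quartiles −0.60 and 0.16) over 8016 protein-coding genes with the same minimum. Summed, the 6 immediate early genes gave 270 UMIs in the in situ polyadenylated and 471 in the standard nuclei, a relative log2 ratio of −0.12 (interval −0.35 to 0.09). The 4 heat shock genes gave 101 and 181 UMIs, a relative log2 ratio of −0.16 (−0.53 to 0.20). The upper ends of these kallisto intervals correspond to a 1.07-fold rise for the immediate early sum and a 1.15-fold rise for the heat shock sum. They are not limits on a rise in general, since they do not cover the choice of matrix or of scaling genes. By STAR, described below, the immediate early sum stood at 1.37-fold and the heat shock sum at 1.16-fold, both above these ends.

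Among the AP-1 genes, Jun gave by far the most UMIs of any member. It had 184 UMIs (93.2 CPM, interval 80.2 to 108) in the in situ polyadenylated nuclei and 294 (213 CPM, 189 to 238) in the standard nuclei. Its CPM was lower in the in situ polyadenylated library with intervals that did not overlap. Its relative log2 ratio was 0.00 (−0.27 to 0.27), the median of the genes used for the scaling. Among protein-coding genes with at least 20 UMIs over both libraries it stood at percentile 64.8. Junb, another AP-1 subunit, had 18 and 26 UMIs and a relative log2 ratio of 0.15 (−0.81 to 1.07). Fos, the partner of Jun and often the most sharply induced gene of the class, gave few UMIs. It had 3 UMIs (1.52 CPM) in the in situ polyadenylated and 1 UMI (0.723 CPM) in the standard nuclei, too few for a ratio. Jun accounted for 184 of the 270 and 294 of the 471 immediate early UMIs, and the sum without it was −0.36 (−0.75 to 0.02).

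Egr1, a zinc finger factor induced through the serum response factor, had 38 UMIs (19.2 CPM) in the in situ polyadenylated and 82 (59.3 CPM) in the standard nuclei. Its relative log2 ratio was −0.43 (−1.03 to 0.14). Ier2, a nuclear immediate early protein, had 25 and 61 UMIs and a relative log2 ratio of −0.61 (−1.34 to 0.08), the lowest of the immediate early members past the minimum, and −1.13 (−2.29 to −0.07) in nuclei over 1500 UMIs. Atf3, a factor induced by many stresses, had 2 and 7 UMIs and a ratio of −1.13 with an interval from −4.43 to 1.26. In nuclei over 750 UMIs the interval left 0 for none of these.

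Among the heat shock genes, the 2 inducible HSP70 genes gave few UMIs. Hspa1a had 0 UMIs in 1335 in situ polyadenylated nuclei, which at the floor of 3 counts allows a share of nuclei with a UMI of up to 0.225%, and 1 UMI in the standard nuclei. Hspa1b had 8 UMIs (4.05 CPM) and 10 UMIs (7.23 CPM), a relative log2 ratio of 0.36 (−1.19 to 1.85). In nuclei over 500 UMIs it was past 2-fold higher, at 1.04, with an interval that included 0 (−0.18 to 2.27). The 2 genes summed gave 8 and 11 UMIs and 0.22 (−1.30 to 1.67). Dnajb1, the HSP40 partner that delivers clients to HSP70, had 7 and 22 UMIs and −0.97 (−2.44 to 0.30), just short of 2-fold lower. With other nucleus limits it was past that fold, at −1.24 (−2.55 to −0.12) over 500 UMIs and −1.83 (−5.10 to 0.49) over 1500 UMIs. Hsph1, an HSP110 nucleotide exchange factor that also has a constitutive level, supplied 86 of the 101 and 148 of the 181 heat shock UMIs. Its relative log2 ratio was −0.11 (−0.51 to 0.29), and the sum without it was −0.46 (−1.45 to 0.46). The intervals stayed within 2-fold in both directions for Jun, Hsph1 and both sums, and reached past 2-fold in at least 1 direction for each of the other members with a ratio.

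**Figure D1:**
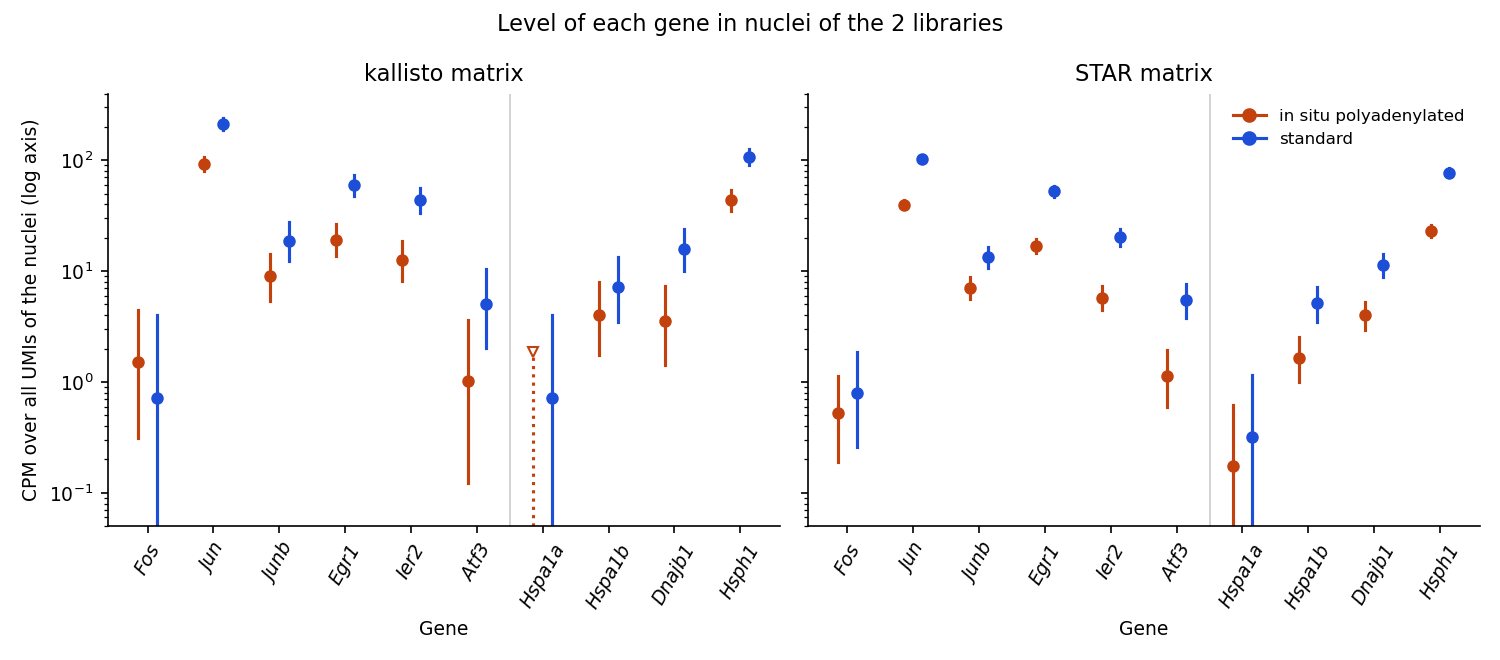
CPM of each member (log axis) in nuclei of the in situ polyadenylated (orange) and standard (blue) libraries, by kallisto (left) and STAR (right). Points are the values, lines exact 95% Poisson intervals, and the open triangle marks the upper limit of Hspa1a at 0 UMIs. All members except Fos by kallisto lie lower in the in situ polyadenylated library on this scale, where Jun stands at 93.2 and 213 CPM by kallisto.

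The STAR matrix held more UMIs for every member and gave a higher relative ratio for each of the 6 members past the minimum by kallisto. It counted 818 and 1219 immediate early UMIs, with a relative log2 ratio of 0.46 (0.33 to 0.59), and 334 and 587 heat shock UMIs, with 0.22 (0.02 to 0.42). Both sums thus turned from below to above 0, the median of the genes used for the scaling, with the matrix. Among protein-coding genes with at least 20 UMIs over both libraries, the immediate early sum stood at percentile 56.2 by kallisto and 73.3 by STAR. The heat shock sum stood at percentile 53.4 and 60.6. Jun had 457 and 644 STAR UMIs and 0.54 (0.36 to 0.71), Egr1 194 and 327 UMIs and 0.28 (0.02 to 0.54), and Junb 82 and 83 UMIs and 1.02 (0.56 to 1.47). These 3 were the members with intervals above 0 in that matrix. Junb was the 1 of 8 members past the minimum that was at least 2-fold higher, where 15.9% of all 13858 genes tested were at least 2-fold higher and 2.81% lower. Prdx2 overlaps 1238 bases of Junb on the opposite strand, and reads of the 2 genes there may be mixed in the STAR counts, whose strand setting is not given.

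The intervals of the other members with a ratio included 0 by STAR. Ier2 and Dnajb1 nevertheless lay above their kallisto intervals, whose upper ends were 0.08 and 0.30. Ier2 stood at 0.10 (−0.35 to 0.54) with 66 and 126 UMIs, Dnajb1 at 0.41 (−0.16 to 0.96) with 46 and 71, and Hsph1 at 0.18 (−0.04 to 0.40) with 267 and 482. Atf3 had 13 and 34 UMIs and −0.35 (−1.40 to 0.61), and Hspa1b 19 and 32 UMIs and 0.28 (−0.62 to 1.14). Fos had 6 and 5 UMIs and 1.30 (−0.68 to 3.35), and Hspa1a 2 UMIs in each library. The members' median was 0.28, against a median of 0.06 and quartiles of −0.30 and 0.50 over 12382 protein-coding genes. By CPM every member except Fos by kallisto was lower in the in situ polyadenylated library in both matrices, with a median log2 ratio of −1.46 over the 6 members past the minimum by kallisto and −1.64 over the 8 by STAR.

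**Figure D2:**
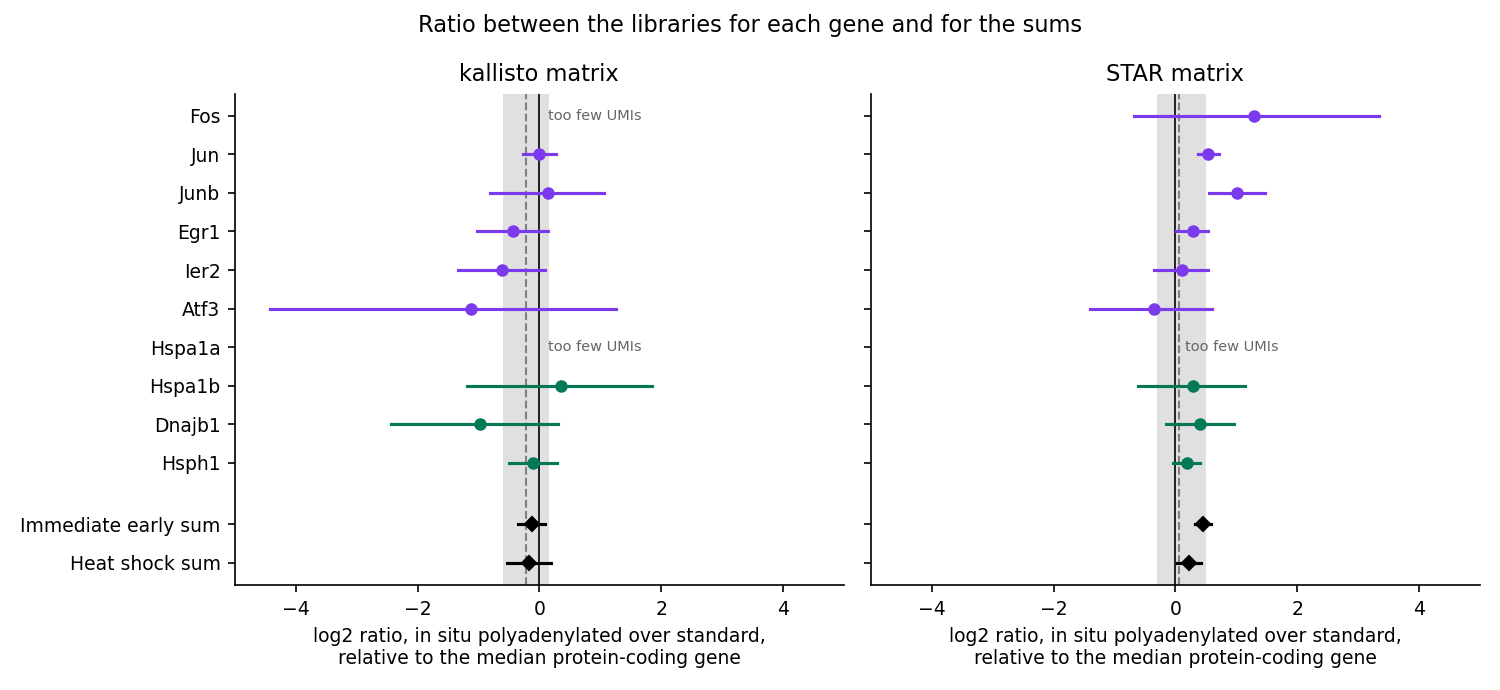
Relative log2 ratio of each member and of the sums, by kallisto (left) and STAR (right). Points are values, lines 95% counting intervals, the grey band the quartiles of protein-coding genes with at least 20 UMIs and the dashed line their median. By kallisto all intervals include 0, and by STAR those of Jun, Junb and Egr1 and of both sums lie above it.

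The STAR ratios of the members depended on the genes used for the scaling. The 1096 protein-coding genes with introns in at most 50% of the gene body had a median log2 CPM ratio of −1.65 by STAR, and the 1725 with introns in over 90% had −2.13. By kallisto the corresponding medians were −1.20 (374 genes) and −1.12 (348 genes). Set against the intron-poor genes, a choice made after seeing these values, the STAR ratios of the members came to 0.19 (0.06 to 0.32) for the immediate early sum, −0.05 (−0.25 to 0.15) for the heat shock sum and 0.01 for the members' median. On that scale Jun stood at 0.27 (0.10 to 0.45), Egr1 at 0.01 (−0.25 to 0.27) and Junb at 0.75 (0.29 to 1.21).

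How many more UMIs STAR counted differed between members. For Jun the STAR over kallisto ratio was 2.50 (2.10 to 2.98) in the in situ polyadenylated and 2.19 (1.91 to 2.52) in the standard nuclei, and for the single-exon Ier2 it was 2.64 and 2.07. Egr1 had 5.11 (3.59 to 7.43) and 3.99 (3.12 to 5.14), and Hsph1 3.10 and 3.26. The median over protein-coding genes with at least 50 kallisto UMIs was 3.86 in the in situ polyadenylated and 4.65 in the standard nuclei, and over single-exon protein-coding genes it was 1.20 (51 genes) and 1.79 (29 genes). Jun and Ier2 thus gained more from the genome-based counting than the median single-exon gene and less than the median protein-coding gene, in both libraries.

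Fewer in situ polyadenylated than standard nuclei held a member's UMI. Thinned to 750 UMIs each, 13.0% (11.3 to 15.0) of the in situ polyadenylated and 27.9% (25.3 to 30.7) of the standard nuclei had at least 1 UMI of any member, and before thinning the shares were 22.3% and 39.3%. When only protein-coding UMIs were counted and thinned to 200 a nucleus, which left out 129 and 0 nuclei, the shares were 11.9% (10.1 to 13.8) and 15.0% (12.9 to 17.2) and their intervals overlapped. On that measure Jun was found in 6.09% and 6.95% of nuclei, Egr1 in 1.40% and 2.01%, and Hsph1 in 3.01% and 3.89%. All cells were of 1 line, so no cell type that lacks these genes was at hand to give the background of free RNA, and low-UMI barcodes take that place below.

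How many nuclei held several members at once depended on the matrix. By kallisto, 3.00% of nuclei after in situ polyadenylation and 8.10% without it held at least 2 members without thinning, with at most 3 and 5 members in a nucleus. By STAR, which counted more UMIs a nucleus, the shares were 17.3% and 32.8%. The 5% of nuclei with the most member UMIs held 37.5% of the 371 member UMIs in the in situ polyadenylated and 29.3% of the 652 in the standard library. Over the 10 pairs of the 5 members with the most UMIs, the clearest joint detection by kallisto was that of Egr1 and Ier2 in the standard library. There, Ier2 was found in 11 of 74 nuclei with an Egr1 UMI (14.9%, 7.66 to 25.0) and in 4.19% (3.06 to 5.59) of those without, and by STAR in 17.5% (12.8 to 23.0) and 7.94% (6.25 to 9.91). In the in situ polyadenylated library the intervals of the pair overlapped, with 0 of 37 nuclei (interval to 9.49%) against 1.93% (1.25 to 2.83) by kallisto and 4.32% against 4.89% by STAR. The remaining pairs had overlapping intervals by kallisto in both libraries. By STAR the intervals were apart for 3 of 10 pairs in the in situ polyadenylated and 2 of 10 in the standard library, always with the higher share in nuclei that held the other gene. The standard nuclei with an Egr1 UMI were also deeper, with a median of 1172 UMIs against 990, and the difference between the libraries was not tested. In the pairs apart by STAR, nuclei that held the other gene were likewise deeper. For Egr1 in the in situ polyadenylated library the medians were 8970.5 against 6529.5 STAR UMIs. The pairs were counted without thinning.

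Within the in situ polyadenylated library, the members' level did not differ beyond counting error between nuclei with and without the ribosomal RNA-like transcript ENSMUSG00002075551. The 507 nuclei with a UMI of it had 134 member UMIs (589 CPM computed over protein-coding UMIs) and the 828 without had 237 (684). The relative log2 ratio was −0.14 (−0.46 to 0.17), with −0.11 for the immediate early and −0.23 for the heat shock sum.

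Barcodes far below the nucleus limit were used as a stand-in for the free RNA of each library, and the origin of their UMIs was not tested. In the in situ polyadenylated library, barcodes of 1 to 100 UMIs held members at 1001 protein-coding CPM, the CPM computed over protein-coding UMIs alone, against 646 in nuclei, a log2 ratio of 0.63 (0.45 to 0.82). In the standard library the levels were 852 and 849, a log2 ratio of 0.01 (−0.13 to 0.15). In the in situ polyadenylated library the immediate early sum stood at 0.77 (0.55 to 0.98) and the heat shock sum at 0.19 (−0.19 to 0.58). The difference between the 2 sums was not tested. Jun stood at 0.53 (0.26 to 0.80) in the in situ polyadenylated and −0.23 (−0.44 to −0.01) in the standard library. By protein-coding UMIs it was thus higher in low-UMI barcodes than in nuclei in the first and lower in the second. On all UMIs the standard library's interval included 0 (−0.17, −0.39 to 0.05). Egr1 was higher in low-UMI barcodes than in nuclei in both libraries, at 1.12 (0.56 to 1.70) and 0.93 (0.57 to 1.30). Fos, with 3 and 1 UMIs in nuclei, had 24 and 13 UMIs in barcodes of 1 to 100 UMIs. Hsph1 was even between low-UMI barcodes and nuclei in the in situ polyadenylated library (−0.02, −0.45 to 0.42). It was lower in low-UMI barcodes in the standard library (−0.35, −0.66 to −0.03), where on all UMIs the interval included 0 (−0.29, −0.60 to 0.03).

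By UMI class, the immediate early sum in the in situ polyadenylated library was 1266 (1039 to 1527) protein-coding CPM in barcodes of 1 to 10 UMIs, 732 (664 to 805) at 11 to 100, 457 (406 to 513) at 101 to 500 and 479 (401 to 567) in nuclei over 1500 UMIs. The standard library stayed between 555 and 660 in every class from 1 UMI upward. The heat shock sum lay between 125 and 221 in the in situ polyadenylated and between 195 and 258 in the standard library. After in situ polyadenylation it was lower at 101 to 500 UMIs than in the class before, with 198 (163 to 237) at 11 to 100 UMIs and 125 (99.0 to 155) at 101 to 500. In every class above 100 UMIs both sums were lower in the in situ polyadenylated library on this scale, with overlapping intervals in some classes. At 501 to 750 UMIs the immediate early sum was 534 (443 to 639) against 580 (519 to 646). In nuclei over 750 UMIs the immediate early log2 ratio was −0.38 on protein-coding CPM and −0.12 relative to the median protein-coding gene.

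**Figure D3:**
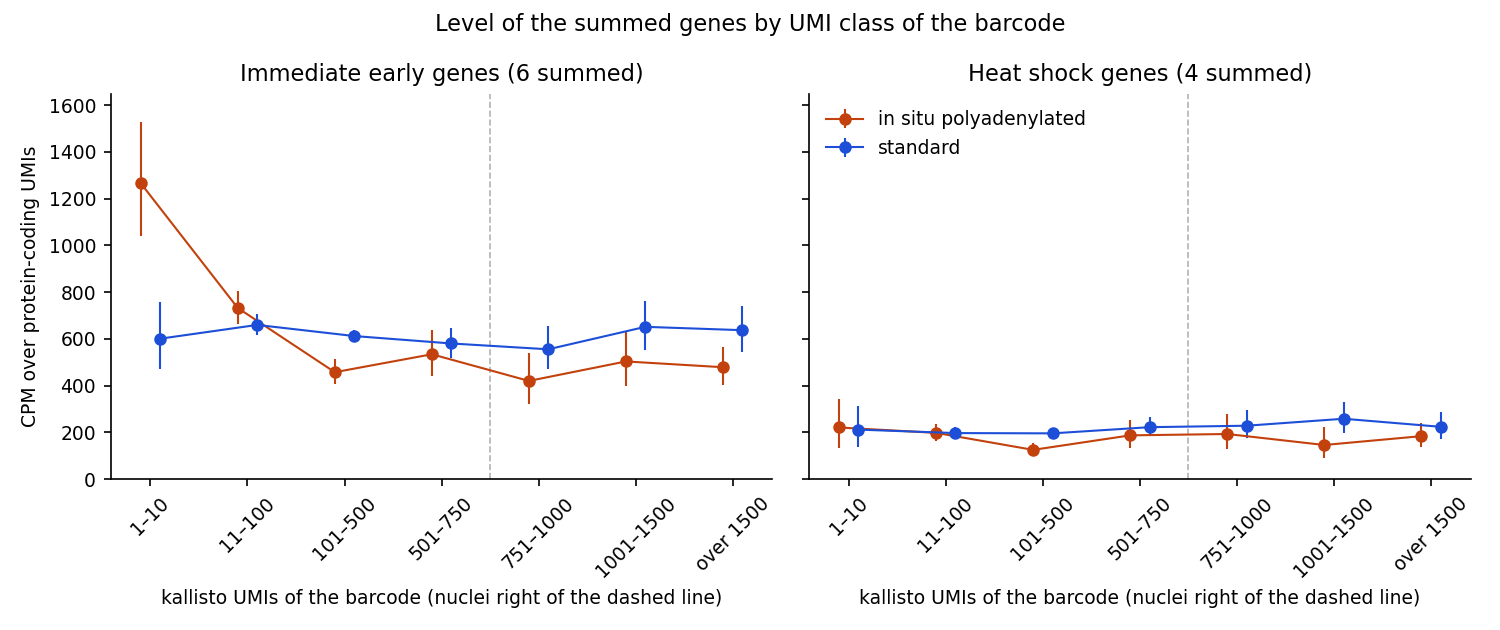
Summed immediate early (left) and heat shock (right) UMIs as protein-coding CPM, by the number of kallisto UMIs of the barcode, with exact 95% Poisson intervals. Orange is the in situ polyadenylated and blue the standard library, and nuclei lie right of the dashed line. The immediate early sum of the in situ polyadenylated library falls from 1266 in the lowest class to 457 at 101 to 500 UMIs, while the standard library stays between 555 and 660.

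The wider set of 42 other immediate early genes gave values on both sides of the median. By kallisto 28 passed the minimum with a median of −0.22, and 3 were at least 2-fold higher and 2 at least 2-fold lower, beside 3.63% and 12% of all genes tested. Klf10, a growth factor-induced Krüppel-like factor, had 54 and 30 UMIs and 1.53 (0.86 to 2.22). Jund, the AP-1 subunit with a constitutive level, had 74 and 45 UMIs and 1.40 (0.84 to 1.96), and Ier5 had 32 and 23 UMIs and 1.15 (0.34 to 1.99). Lower were Zfp36l1, which promotes decay of AU-rich mRNAs, with 3 and 17 UMIs (−1.82, −4.24 to −0.03), and Klf6 with 18 and 65 (−1.17, −2.02 to −0.40). Gadd45g, a growth arrest gene, had the most UMIs of the list, 203 and 515 (−0.67, −0.91 to −0.43), followed by Ier5l with 61 and 116 (−0.25) and Ccn1, a matricellular protein, with 45 and 82 (−0.19).

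By STAR 38 of these 42 genes passed, with a median of 0.50, the upper quartile of protein-coding genes in that matrix. This list was not set against intron-poor genes, a scaling that lowered the STAR ratios of the members. At least 2-fold higher were 7 genes, of which Jund (1.58, 1.26 to 1.91) was the only one also past the fold and the minimum by kallisto. This share of 7 of 38 stands beside 15.9% over all genes in that matrix. Maff, a small AP-1-like factor, had 75 and 29 UMIs (2.40, 1.77 to 3.08), and Klf2 52 and 25 (2.09, 1.38 to 2.84). The others were Zfp36 (1.67, 0.36 to 3.06), Ccn2 (1.25, 0.71 to 1.78), Nfkbia (1.12, 0.71 to 1.52) and Mafk (1.06, 0.49 to 1.64). The leading pair had few transcript-matched UMIs. By kallisto, where both were under the minimum, Klf2 stood at −1.91 on 1 and 6 UMIs with an interval from −7.43 to 1.14, and Maff at 3.00 on 5 and 1 UMIs (−0.16 to 8.56). Mafk, also under it, had 7 and 3 UMIs and 1.90 (−0.23 to 4.48).

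Of 25 other heat shock and chaperone genes, 23 passed by kallisto with a median of −0.32. Of these, 0 were at least 2-fold higher and 5 at least 2-fold lower, where 3.63% of all genes were higher and 12% lower. Hsp90ab1, the constitutive HSP90, had the most UMIs, 593 and 880, and stood at 0.11 (−0.04 to 0.26), while the inducible HSP90 gene Hsp90aa1 had 95 and 306 and stood at −1.01 (−1.36 to −0.67). The small heat shock proteins Hspb1 (12 and 51 UMIs, −1.41, −2.45 to −0.48) and Cryab (22 and 75, −1.09, −1.85 to −0.39) were also lower, as were the HSP40 gene Dnajb6 (18 and 80, −1.47, −2.30 to −0.72) and Hspa13 (4 and 17, −1.41, −3.44 to 0.21). Hspa9, the mitochondrial HSP70, had more UMIs than any of these 5 genes, 161 and 302, and stood nearer the median gene (−0.23, −0.51 to 0.05). By STAR the list's median was −0.01 over 25 genes and none of the 5 was past the fold, so 2-fold lower values were seen by kallisto alone. Hsp90aa1 stood at −0.06 (−0.34 to 0.21), Hspb1 at −0.29 (−0.98 to 0.36), Cryab at −0.31 (−0.85 to 0.20), Dnajb6 at −0.28 (−0.47 to −0.10) and Hspa13 at −0.39 (−1.17 to 0.34). Higher by STAR were Hspa2, a testis-enriched HSP70 with 19 and 2 UMIs (4.28, 2.23 to 7.43), and the constitutive HSP70 gene Hspa8 with 100 and 100 UMIs (1.03, 0.62 to 1.45). These 2 of 25 genes stand beside 15.9% of all genes at least 2-fold higher in that matrix. Hspa8 stood at −0.32 (−0.81 to 0.15) by kallisto.

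Of 15 regulators of these programmes, 13 passed by kallisto with a median of −0.38. Of these, 0 were past the fold in either direction, beside 3.63% of all genes higher and 12% lower. Hsf1 had 48 and 88 UMIs (−0.20, −0.74 to 0.33), Mrtfa, an actin-sensing partner of the serum response factor, 125 and 271 (−0.44, −0.76 to −0.13), and the stress kinase gene Mapk14 72 and 220 (−0.93, −1.34 to −0.54). By STAR the median was −0.25 over 15 genes. Srf, the gene of the serum response factor, was the only regulator past the fold there, with 191 and 43 UMIs (3.18). Over all genes 15.9% were at least 2-fold higher in that matrix. By kallisto Srf had 10 and 13 UMIs and stood at 0.30 (−1.05 to 1.60). Of 15 genes of the integrated stress and unfolded protein responses, 14 were in the annotation of the files and 12 passed by kallisto. Their median was −0.23 and 0 were past the fold, beside the same kallisto shares of all genes as above. The endoplasmic reticulum chaperone genes Hspa5 (193 and 369 UMIs, −0.26, −0.52 to −0.0019) and Hsp90b1 (185 and 375, −0.34, −0.60 to −0.08) and the translation-controlled factor Atf4 (67 and 129, −0.27, −0.72 to 0.17) stood a little below the median gene. By STAR this list's median was 0.12 over 12 genes, with 0 past the fold, beside 15.9% of all genes higher and 2.81% lower.

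**Figure D4:**
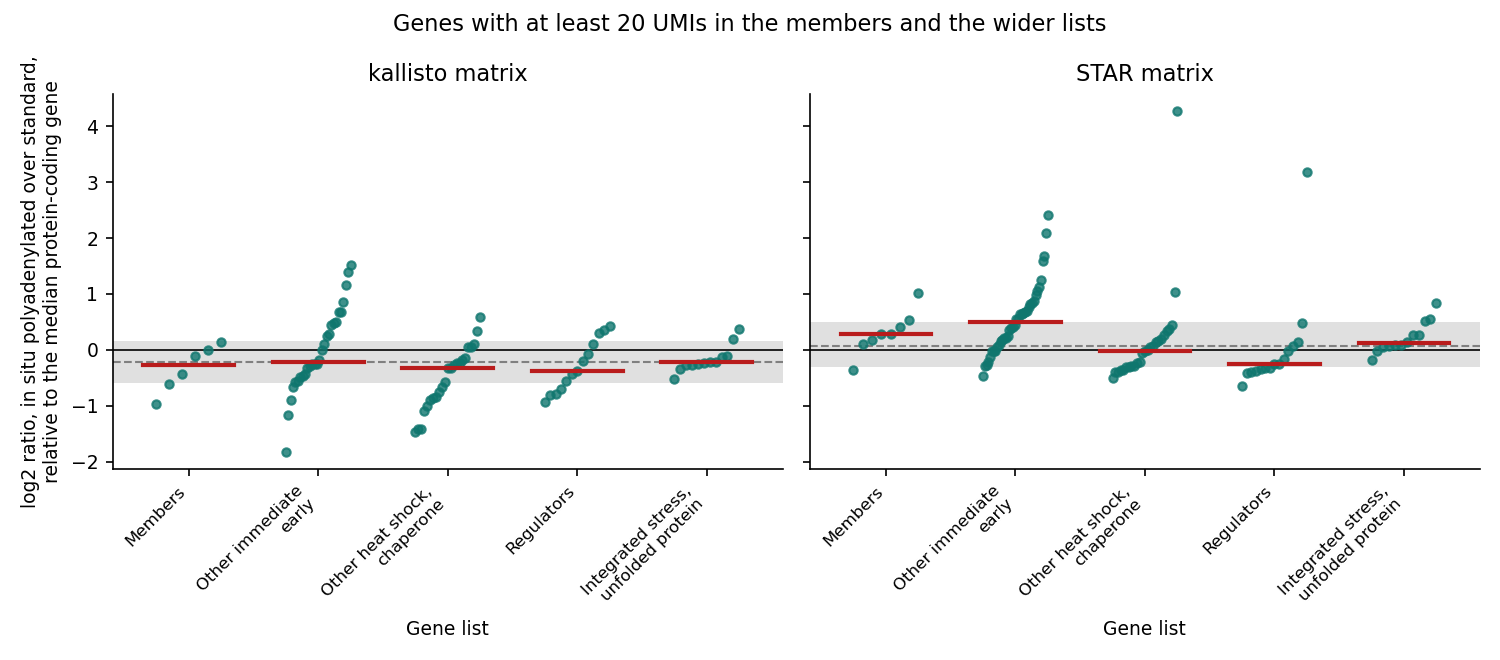
Relative log2 ratio of genes with at least 20 UMIs over both libraries, for the members and the 4 wider lists, by kallisto (left) and STAR (right), sorted within each list. Red bars are list medians, the grey band the quartiles of protein-coding genes and the dashed line their median. By kallisto the list medians run from −0.38 to −0.22, inside the band, and by STAR the other immediate early genes have the highest, 0.50. The STAR values shown were not set against intron-poor genes.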

How the data were processed

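Nuclei of 1 in situ polyadenylated and 1 standard C2C12 library were measured by droplet single-nucleus RNA-sequencing. Per the submitters' notes, the authors used cutadapt 3.4, STAR 2.7.10a, kallisto 0.48.0, bustools 0.41.0 and GRCm39. The kallisto matrices, as deposited, give strand-aware estimated counts (UMIs of a gene in a barcode) with no normalization. The STAR matrices, as deposited, give whole UMI counts for some of the barcodes. The sources used here do not say which.

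Members and lists were chosen with earlier results of these data known. Every member was named, and from each wider list the 3 genes with the most UMIs and those past 2-fold. A gene that this rule named is not reported here. Barcodes over 750 kallisto UMIs were kept. The study's limit of 5% mitochondrial UMIs removed 0, and doublets were not called. Counts were summed per library and rounded. Log2 ratios carry the exact conditional interval of 2 Poisson counts, levels exact Poisson and shares Clopper-Pearson intervals, with a floor of 3 UMIs for a count of 0 and no ratio where both libraries were at or under it. UMIs in nuclei (1974403 and 1382984 by kallisto) set the precision. Thinned shares are expected values, with intervals set on the rounded expected count of nuclei. Gene structures came from GENCODE M39, while the authors used an earlier release. The code (Python 3.11.15, numpy 2.4.6, pandas 2.3.3, scipy 1.17.1) was tested on simulated data. Alternatives are in the closing section.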

Additional observations from a re-analysis of the deposited data

Results flagged for a closer look

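Fos and Atf3 stood out in barcodes of 1 to 10 UMIs, which are far below the nuclei and enter no comparison between nuclei. In the in situ polyadenylated library Fos had 17 UMIs there, 197 CPM over protein-coding UMIs (interval 115 to 316), against 1 UMI and 8.46 (0.214 to 47.1) in the standard library. Atf3 had 16 UMIs and 186 CPM (106 to 302), against 1 UMI and 8.46. The 17 Fos UMIs lay in 17 barcodes and the 16 Atf3 UMIs in 15, with 0 barcodes that held UMIs of 2 members. In nuclei of the same library Fos had 3 UMIs and Atf3 2. The other 8 members had overlapping intervals in this class, Jun with 33 and 35 UMIs among them. The cause was not tested.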

How the results depend on the processing

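No paired analysis was possible because there was only 1 library a group. The main values were −0.12 for the immediate early sum, −0.16 for the heat shock sum and −0.27 for the members' median, all relative log2 ratios by kallisto. By STAR they were 0.46, 0.22 and 0.28. By CPM over all UMIs they were −1.32, −1.36 and −1.46, and by CPM over protein-coding UMIs they were −0.38 (−0.60 to −0.16), −0.42 (−0.79 to −0.06) and −0.53, so that the intervals of both sums left 0. STAR scaled on intron-poor genes (0.19 for the immediate early sum) and the immediate early sum without Jun (−0.36) were added after seeing the data, as were the heat shock sum without Hsph1 and the low-UMI comparison relative to the median gene. Other nucleus limits, the STAR barcodes, leaving out the 5% deepest nuclei, other gene minima, equal weights for nuclei and the HSP70 genes as 1 moved these 3 values by less than their counting interval. With scaling genes of at least 200 UMIs the interval of the immediate early sum nevertheless left 0 (−0.26, −0.48 to −0.04). Dnajb1 was past 2-fold lower there (−1.11, −2.58 to 0.17) and in the STAR barcodes (−1.11, −2.31 to −0.10). Of the single-gene ratios under an alternative, 78 stayed within their interval and 9 moved. In the in situ polyadenylated library, members in low-UMI barcodes over nuclei stood at 0.63, at 1.20 in barcodes of 1 to 10 UMIs, and at −0.15 in those of 101 to 500. The share of nuclei with a member was 13.0% and 27.9% after thinning, 22.3% and 39.3% without it, 15.0% in the standard library on protein-coding UMIs, and 7.62% and 19.2% by STAR after thinning. Where these values moved, the cause was not tested. A floor of 1 UMI would give Fos 2.26 (−1.38 to 7.98) and Hspa1a no ratio. Depth limits Fos, Atf3, Hspa1a and Hspa1b most, each with under 20 kallisto UMIs.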
